A study of Homo sapiens with 12 samples.

Results

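The IFIT and IFITM genes are 2 families of interferon-induced antiviral genes, and all 7 members measured here (IFIT1, IFIT2, IFIT3, IFIT5, IFITM1, IFITM2 and IFITM3) were taken by gene symbol from the 27685 genes of the deposited table. They were followed in U251, an established human glioblastoma cell line that the labels give at passages 14 to 18. All cells carried a stable short hairpin RNA. The 4 groups of 3 libraries each were shINCA1 cells (hairpin against the long noncoding RNA that the study calls INCA1) with interferon gamma (IFNγ) for 24 h, shINCA1 cells without IFNγ, shCTRL cells (control hairpin) with IFNγ for 24 h, and shCTRL cells without IFNγ. As far as the labels tell, each hairpin was read in 1 stable line, so effects of the hairpin and of the line cannot be told apart. By its title the study is about the role of this noncoding RNA in tumour interferon signalling.

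IFIT proteins are cytoplasmic and bind RNA through tetratricopeptide repeats. IFIT1 captures capped RNA that lacks the methyl mark of the cell's own messages and blocks its translation, IFIT2 and IFIT3 form complexes with it, and IFIT5 binds RNA that begins with phosphate groups. IFITM proteins are small membrane proteins that hinder the fusion of viruses with cell membranes, IFITM1 mainly at the cell surface and IFITM2 and IFITM3 mainly in endosomes. The families are known targets of type I interferon, which acts on promoter sites called interferon-stimulated response elements (ISREs). IFNγ acts mainly on other sites, called GAS elements, and through IRF1, which can bind ISRE-like sites.

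The promoters of the members show these sites as words. Of the 7 members, 5 had an entry in the RefSeq promoter table (build GRCh38.p14), IFIT3 with 2 start sites. Each window below holds the 250 bases before the annotated start, read 5′ to 3′ on the gene's own strand. Capitals mark the ISRE-type word, which is GAAA, any 2 bases and GAAA, or its reverse complement. The windows are chr10:89392373-89392622 for IFIT1, chr10:89327747-89327996 for the first start of IFIT3 and chr10:89414318-89414567 for IFIT5, all on the plus strand, and chr11:313790-314039 for IFITM1 on the plus strand and chr11:320861-321110 for IFITM3 on the minus strand. These are shown because the word is common to all of them although the genes differed in how far IFNγ raised them.
IFIT1: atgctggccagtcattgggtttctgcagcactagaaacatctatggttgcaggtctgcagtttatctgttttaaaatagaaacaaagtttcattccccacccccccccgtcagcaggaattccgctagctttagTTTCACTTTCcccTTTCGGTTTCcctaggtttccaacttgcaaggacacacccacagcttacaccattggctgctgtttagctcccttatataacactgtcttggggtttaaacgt
IFIT3: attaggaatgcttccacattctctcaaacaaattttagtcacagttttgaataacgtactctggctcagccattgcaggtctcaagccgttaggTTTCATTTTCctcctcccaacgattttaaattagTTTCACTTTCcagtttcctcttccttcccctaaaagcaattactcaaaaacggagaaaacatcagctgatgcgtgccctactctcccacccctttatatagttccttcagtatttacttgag
IFIT5: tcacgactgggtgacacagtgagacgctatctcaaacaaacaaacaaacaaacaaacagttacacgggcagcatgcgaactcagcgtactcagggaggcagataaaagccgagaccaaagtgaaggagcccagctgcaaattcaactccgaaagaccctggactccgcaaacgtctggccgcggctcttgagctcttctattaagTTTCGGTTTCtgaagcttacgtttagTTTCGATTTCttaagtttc
IFITM1: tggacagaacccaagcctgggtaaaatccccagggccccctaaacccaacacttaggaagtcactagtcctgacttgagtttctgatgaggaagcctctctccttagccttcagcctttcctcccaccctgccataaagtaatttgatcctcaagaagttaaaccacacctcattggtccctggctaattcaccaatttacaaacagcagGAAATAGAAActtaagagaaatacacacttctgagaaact
IFITM3: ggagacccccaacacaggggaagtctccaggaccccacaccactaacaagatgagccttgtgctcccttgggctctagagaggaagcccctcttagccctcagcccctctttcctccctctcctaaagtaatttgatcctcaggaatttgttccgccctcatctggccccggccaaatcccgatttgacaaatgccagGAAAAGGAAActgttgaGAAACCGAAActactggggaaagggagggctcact
IFIT2 and IFITM2 are named without a sequence.

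The ISRE-type word, searched on both strands, was found in 6 of 6 member windows, and 3.02% of all 35116 promoter windows of the same length held it. Of 37 windows of other interferon-stimulated genes, listed here as ISRE type, 19 (51.4%) held it. The word occurred at least 2 times in 5 of the 6 member windows, against 0.225% of all windows and 29.7% of those 37. In IFIT1 the words began 116 and 103 bases before the start, in IFIT3 156 and 122 bases before the first start and 94 and 51 bases before the second, and in IFIT5 45 and 19 bases before it, with a further word, TTTCAGTTTC, that began 4 bases before the start and ran past it. IFITM1 held GAAATAGAAA 40 bases before its start, and GAAACTGAAA likewise ran past the start from 6 bases before it. IFITM3 held GAAAAGGAAA and GAAACCGAAA at 52 and 35 bases. The GAS-type word TTCNNNGAA, which reads the same on both strands, was found in 1 of the 6 windows, that of IFITM1 at 12 bases, and in 6.57% of all windows. It was in 27% of the 37 windows of the other listed genes. A word in a window is a description of its letters and not a bound site.

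The libraries held 46525032 to 66242859 estimated counts, and 15769 genes were tested, all 7 members among them. Levels are in CPM, estimated counts per 1000000 counts of the TMM-scaled library. The labels do not tell whether the 3 libraries of a group are separate cultures. Every p-value therefore measures the spread between these libraries, which may be technical. In bulk RNA, fewer cells expressing a gene and less of its RNA per cell cannot be told apart. The 11 glioblastoma markers, such as VIM at 1779 to 2631 CPM, summed to 3086 to 3146 CPM in treated and 3091 to 3126 CPM in untreated shINCA1 cells, against 3560 to 3693 CPM in treated and 3678 to 3804 CPM in untreated shCTRL cells. Most of each sum was VIM and CD44, the latter at 564 to 908 CPM. The astrocyte marker GFAP stayed between 0.157 and 1.76 CPM. OLIG2, CHI3L1 and S100B, also among the 11, reached at most 1.53, 1.26 and 2.95 CPM in any library. The 8 immune markers summed to 34.7 to 37.8 CPM in treated and 36.1 to 41.6 CPM in untreated shINCA1 cells, against 47.4 to 50.7 CPM in treated and 51.7 to 55.1 CPM in untreated shCTRL cells, mostly NCAM1, which neural cells also express, and CD68. Of these 8, PTPRC, the defining gene of immune cells, had at most 3 counts in any library, and 2 were at 0 in every library. The targeted RNA was not analysed here, so the hairpin labels were not checked against its level. Low values in the table pile up at multiples of 3, with 5790 values of 3 and 4120 of 6 against 1317 of 4 and 1906 of 5, for a reason not given in the sources read, so the lowest values below may rest on fewer sequenced fragments than counts.

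**Figure D1:**
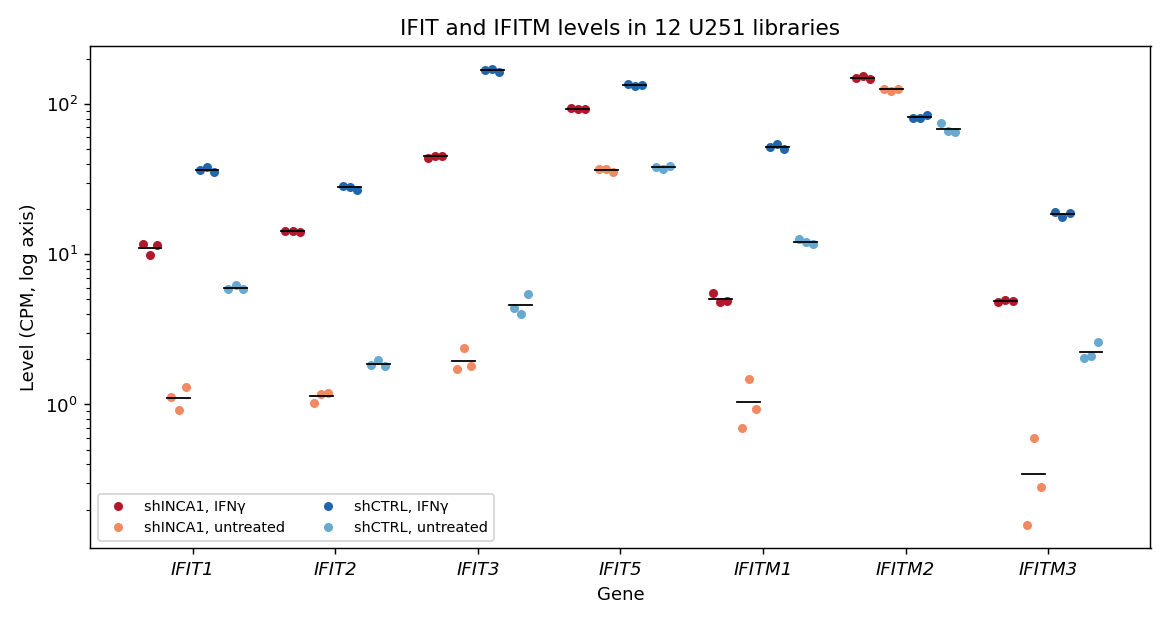
Level of each gene (x axis) in CPM on a log axis (y axis), with 1 point per library, a black line at the mean of the 3 libraries, and the groups in the order shINCA1 with IFNγ, shINCA1 untreated, shCTRL with IFNγ and shCTRL untreated. IFITM2 is the gene whose shINCA1 points lie above its shCTRL points, and IFITM3 in untreated shINCA1 cells holds the lowest values, 0.157 to 0.599 CPM.

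IFIT3 was the member with the widest range of levels in CPM. It stood at 43.97, 45.21 and 45.33 CPM in IFNγ-treated shINCA1 libraries, against 1.72, 2.36 and 1.79 CPM in untreated shINCA1 libraries. In shCTRL cells it stood at 169, 172 and 164 CPM with IFNγ, against 4.39, 3.99 and 5.40 CPM without. No 2 of the 4 groups overlapped, and the order was the same as for IFIT1, IFIT2 and IFITM3: treated shCTRL, treated shINCA1, untreated shCTRL, untreated shINCA1.

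IFIT1, the RNA-capturing partner of IFIT3, reached 11.7, 9.93 and 11.5 CPM in IFNγ-treated shINCA1 cells, against 1.11, 0.914 and 1.31 CPM in untreated shINCA1 cells. In shCTRL cells its levels were 36.6, 38.1 and 35.1 CPM with IFNγ, against 5.88, 6.20 and 5.86 CPM without. Treated shINCA1 cells were thus less than 2-fold above untreated shCTRL cells, and the groups did not overlap. IFIT2 stood at 14.3, 14.3 and 14.0 CPM in treated shINCA1 cells, against 1.03, 1.18 and 1.19 CPM in untreated shINCA1 cells. Its levels in shCTRL cells were 28.6, 28.2 and 26.9 CPM with IFNγ, against 1.82, 1.97 and 1.82 CPM without. Among the IFIT genes with low starting levels, IFIT2 was the one whose untreated lines were closest.

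IFIT5 differed from the other IFIT genes in being well expressed before treatment. It stood at 93.5, 92.3 and 92.7 CPM in treated shINCA1 cells, against 36.9, 37.1 and 35.4 CPM in untreated shINCA1 cells. In shCTRL cells it stood at 135, 133 and 133 CPM with IFNγ, against 38.3, 36.9 and 39.0 CPM without. The untreated libraries of the lines overlapped, the only overlap among the 4 comparisons of groups for any member.

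Of the IFITM genes, IFITM1 was the one with the greatest distance between the lines. Its levels were 5.51, 4.79 and 4.87 CPM in treated shINCA1 cells, against 0.697, 1.48 and 0.935 CPM in untreated shINCA1 cells. In shCTRL cells they were 51.4, 53.9 and 50.5 CPM with IFNγ, against 12.7, 12.1 and 11.7 CPM without. Every treated shINCA1 library was thus below every untreated shCTRL library. IFITM3 stood at 4.85, 4.93 and 4.85 CPM in treated shINCA1 cells, against 0.157, 0.599 and 0.282 CPM in untreated shINCA1 cells, which are 9, 36 and 19 counts. In shCTRL cells it stood at 19.0, 17.7 and 18.8 CPM with IFNγ, against 2.05, 2.10 and 2.59 CPM without. The untreated shINCA1 libraries of IFITM3 differed among themselves nearly 4-fold, the widest ratio within a group for any member.

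IFITM2 had the opposite order of lines. It stood at 148, 153 and 147 CPM in treated shINCA1 cells, against 126, 122 and 126 CPM in untreated shINCA1 cells. In shCTRL cells it stood at 81.2, 80.2 and 84.2 CPM with IFNγ, against 74.2, 66.5 and 65.2 CPM without. Every shINCA1 library was above every shCTRL library whatever the treatment. IFITM10, a further gene of the family on the same chromosome that is not among the 7, shared this order of lines, with 34.6 ± 1.81 and 40.3 ± 1.61 CPM in treated and untreated shINCA1 cells and 9.36 ± 0.667 and 11.5 ± 0.892 CPM in treated and untreated shCTRL cells (SD, n = 3 each). Unlike IFITM2, IFITM10 had a lower mean with IFNγ than without it in each line. IFITM5 was at 0 in every library, and IFIT1B and IFITM4P had at most 8 and 12 counts.

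The first comparison asked how the members responded to IFNγ in cells with the hairpin against INCA1. All 7 members rose in edgeR's quasi-likelihood test at an adjusted p of 0.05, where 6.13% of all genes tested rose, 2.95% fell and 9.08% did either. Their median log2 change was 3.31, against 0.00 for all genes tested. IFIT3 rose the most, by 4.52 ± 0.11 on the log2 scale (SE, adjusted p = 6.275e-11), that is, 22.9-fold. IFITM3 followed at 3.81 ± 0.26 (adjusted p = 9.03e-07), IFIT2 at 3.64 ± 0.07 (adjusted p = 5.203e-12) and IFIT1 at 3.31 ± 0.11 (adjusted p = 9.308e-10). IFIT3 ranked 86th and IFIT1 130th by log2 change among the 15769 genes.

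IFITM1 and IFIT5 rose by smaller amounts in shINCA1 cells. IFITM1 rose by 2.28 ± 0.18 (adjusted p = 2.954e-06) and IFIT5 by 1.35 ± 0.03 (adjusted p = 2.372e-11). IFITM2 rose by 0.26 ± 0.05 (adjusted p = 0.002581), a fold of 1.20. The treated and untreated libraries did not overlap for any of the 7 members, which was true of 24.9% of all genes tested.

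Most of the other interferon genes, taken from lists chosen with earlier results of these data known, also rose in shINCA1 cells. Of 31 tested genes of the ISRE type outside the families, 28 rose and 0 fell, with a median log2 change of 3.14, or 2.26 with genes at 0 in 1 group set to their bound. DTX3L and PARP9, partners in ADP-ribosylation, rose by 3.82 ± 0.05 (adjusted p = 8.01e-14) and 4.14 ± 0.08 (adjusted p = 4.13e-12), PARP14 by 3.45 ± 0.05 (adjusted p = 2.24e-13) and the RNA sensor IFIH1 by 3.14 ± 0.07 (adjusted p = 1.41e-11). Of 17 tested receptor, kinase, STAT, IRF and regulator genes, 12 rose and 0 fell. IRF1 rose by 5.75 ± 0.06 (adjusted p = 1.96e-14) and IRF9 by 3.10 ± 0.11 (adjusted p = 1.54e-09).

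The same treatment was read in cells with the control hairpin. Again all 7 members rose, where 9.72% of all genes tested rose, 7.51% fell and 17.2% did either, with a median log2 change of 2.61 against -0.01 for all genes tested. IFIT3 led with 5.19 ± 0.11 (adjusted p = 1.021e-11), a 36.5-fold rise that ranked 81st. IFIT2 rose by 3.90 ± 0.07 (adjusted p = 1.939e-12), IFITM3 by 3.04 ± 0.21 (adjusted p = 5.199e-07), IFIT1 by 2.61 ± 0.10 (adjusted p = 1.868e-09) and IFITM1 by 2.10 ± 0.14 (adjusted p = 4.827e-07). IFIT5 rose by 1.81 ± 0.03 (adjusted p = 1.562e-12), a fold of 3.51, and IFITM2 by 0.25 ± 0.05 (adjusted p = 0.001972), a fold of 1.19. IFITM2 was thus the member with the smallest rise in either line.

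The treated and untreated shCTRL libraries did not overlap for any member, against 33.4% of all genes tested. Of the 31 ISRE-type genes 29 rose and 0 fell in shCTRL cells (median log2 change 3.12), and of the 17 signalling genes 12 rose and 0 fell. IRF7, an interferon regulatory factor gene that lies on chromosome 11 with the IFITM genes, was at 0 in every library. The rises of the members stood under each scaling that was tried, although with upper-quartile factors the calls over all genes turned to 1201 raised and 1970 lowered in shCTRL cells, against 1532 and 1184 with the scaling used here. In shINCA1 cells the calls were 815 and 733 with upper-quartile factors and 969 and 729 with DESeq2, against 967 and 465.

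**Figure D2:**
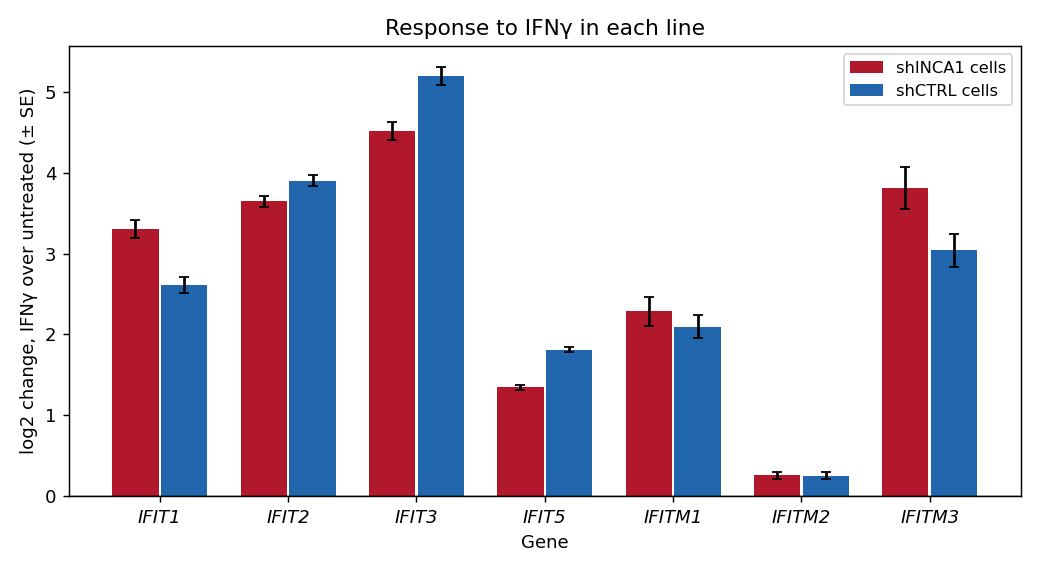
Log2 change with IFNγ over untreated (y axis) of each gene (x axis) in shINCA1 cells and shCTRL cells, as fitted by edgeR, with error bars of 1 SE. Every column is above 0, IFIT3 is highest in each line at 4.52 and 5.19, and IFITM2 is lowest at 0.26 and 0.25.

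The lines were then compared without IFNγ. Of the 7 members, 5 were lower in untreated shINCA1 than in untreated shCTRL cells and 1 was higher. Lowered genes made up 29.5% and raised genes 27.4% of all genes tested, together 56.9%, so a difference between the lines was common. IFITM1 was 11.7-fold lower in shINCA1 cells, with a log2 difference of -3.55 ± 0.17 (SE, adjusted p = 7.231e-09), IFITM3 differed by -2.69 ± 0.27 (adjusted p = 4.155e-06) and IFIT1 by -2.42 ± 0.11 (adjusted p = 4.555e-09). IFIT3 differed by -1.23 ± 0.12 (adjusted p = 3.124e-06) and IFIT2 by -0.72 ± 0.08 (adjusted p = 6.856e-06).

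IFIT5 did not pass the test in untreated cells, with a log2 difference of -0.06 ± 0.03 (adjusted p = 0.1033). It passed without untreated shCTRL library 2 (-0.09, adjusted p = 0.0351). IFITM2 was higher in shINCA1 cells by 0.86 ± 0.05 (adjusted p = 1.442e-08), a fold of 1.82. Libraries of the lines did not overlap for the 6 members that passed, and 62.8% of all genes tested did not overlap.

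With IFNγ, 6 of the 7 members were lower in shINCA1 than in shCTRL cells and IFITM2 was higher, where 30.2% of all genes tested were lowered and 28.7% raised, together 58.9%. IFITM1 differed by -3.36 ± 0.15 (adjusted p = 3.671e-09), 10.3-fold lower in shINCA1 cells. IFITM3 and IFIT3 differed by -1.92 ± 0.19 (adjusted p = 3.787e-06) and -1.91 ± 0.09 (adjusted p = 6.143e-09), IFIT1 by -1.73 ± 0.09 (adjusted p = 1.386e-08) and IFIT2 by -0.97 ± 0.06 (adjusted p = 3.805e-08). IFIT5, close to equal in the untreated lines, now differed by -0.53 ± 0.03 (adjusted p = 2.585e-08). IFITM2 differed by 0.87 ± 0.05 (adjusted p = 1.289e-08), close to its difference without IFNγ, and no member's libraries overlapped between the lines, against 66.5% of all genes tested.

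The signalling genes, which include receptors, kinases, transcription factors and feedback regulators, were also compared between the lines. Of the 17, 14 were lower and 2 higher with IFNγ, and 11 were lower and 1 higher without it. Over all genes tested, 30.2% were lowered and 28.7% raised with IFNγ, and 29.5% and 27.4% without it. The type I interferon receptor gene IFNAR1 differed by -0.93 ± 0.04 in IFNγ-treated (adjusted p = 4.33e-09) and -0.90 ± 0.04 in untreated cells (adjusted p = 6.18e-09), and the kinase gene JAK1 by -0.67 ± 0.04 in treated (adjusted p = 1.32e-08) and -0.60 ± 0.04 in untreated cells (adjusted p = 3.39e-08). Of the 31 other ISRE-type genes, 27 were lower and 1 higher with IFNγ (median -0.87), and 17 were lower and 3 higher without it (median -0.74, or -0.43 with genes at 0 at their bound). The members' medians were -1.73 with and -1.23 without IFNγ, against 0.00 and -0.01 over all genes tested.

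Genes beside the families on the chromosome were compared in the same way. Of 15 tested neighbours of the IFITM genes on chromosome 11, 4 were lower and 3 higher in untreated shINCA1 than in untreated shCTRL cells, with a median of 0.05. Of 13 tested neighbours of the IFIT genes on chromosome 10, 2 were lower and 4 higher, with a median of 0.01. Over all genes tested 29.5% were lowered and 27.4% raised. With IFNγ the counts were 3 lower and 5 higher for the IFITM neighbours and 5 lower and 3 higher for the IFIT neighbours. Of all genes tested, 30.2% were then lowered and 28.7% raised. IFNγ itself raised 6.13% and lowered 2.95% of all genes tested in shINCA1 cells, and raised 9.72% and lowered 7.51% in shCTRL cells. It raised or lowered 0 of the 15 IFITM neighbours in edgeR's test in either line. At an unadjusted p of 0.05 it moved 0 of them in shINCA1 cells and raised 2 and lowered 2 in shCTRL cells. Of the 13 IFIT neighbours 4 rose and 0 fell in shINCA1 cells, and 5 rose and 1 fell in shCTRL cells. The death receptor gene FAS, which had the smallest p of these in either line, rose by 1.77 ± 0.09 in shINCA1 cells (adjusted p = 3.90e-08) and 2.64 ± 0.09 in shCTRL cells (adjusted p = 6.77e-10). ANKRD1, which encodes a cardiac ankyrin repeat protein, fell by 0.83 ± 0.03 on the log2 scale in shCTRL cells (adjusted p = 1.71e-09) and did not pass in shINCA1 cells (0.10 ± 0.03, adjusted p = 0.0743).

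Markers of cell identity differed between the lines beside the members. All 11 glioblastoma markers passed the test in untreated cells and with IFNγ, 5 higher and 6 lower in shINCA1 than in shCTRL cells each time. Over all genes tested, 56.9% differed between the lines in untreated cells and 58.9% with IFNγ. NES, a neural progenitor gene, differed by -2.00 ± 0.06 with IFNγ (adjusted p = 8.22e-11) and -2.03 ± 0.06 untreated (adjusted p = 7.24e-11), and CD44 by 0.53 ± 0.02 (adjusted p = 1.97e-09) and 0.43 ± 0.02 (adjusted p = 1.23e-08). Of the 4 immune markers tested, CD68 and NCAM1 were lower and CSF1R was higher in shINCA1 cells, with and without IFNγ. The part of these shifts in the members' differences was not tested.

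**Figure D3:**
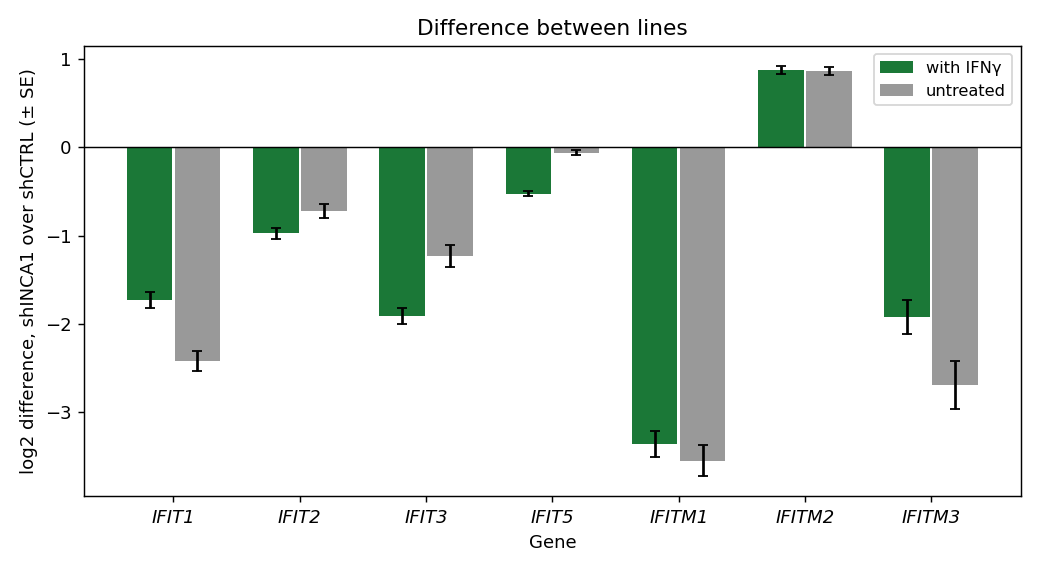
Log2 difference of shINCA1 over shCTRL (y axis) for each gene (x axis), with IFNγ and untreated, as fitted by edgeR, with error bars of 1 SE. Of the 7 genes IFITM2 alone lies above 0, at 0.87 with IFNγ and 0.86 untreated, IFITM1 lies lowest at -3.36 and -3.55, and IFIT5 is at -0.53 with IFNγ and -0.06 untreated.

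Whether the lines responded to IFNγ by different amounts was tested as a difference of the log2 responses. The members split: on the log2 scale IFIT1 responded more in shINCA1 than in shCTRL cells, IFIT3 and IFIT5 responded less, and 4 members did not pass the test. IFIT1 rose from a lower mean in shINCA1 cells, 1.11 CPM against 5.98 CPM in shCTRL cells. With IFNγ its mean was still lower, 11.1 CPM against 36.6 CPM. The 31 other ISRE-type genes split too, with 4 larger and 5 smaller log2 responses in shINCA1 cells (7 and 10 at an unadjusted p of 0.05). Over all genes tested, 0.615% had a larger and 1.1% a smaller log2 response in shINCA1 cells, together 1.71%. Among the members, IFIT5 had the firmest difference, -0.46 ± 0.04 (adjusted p = 0.0002034). It stayed past the threshold in every alternative that was tried (adjusted p up to 0.00144). The difference was 0.69 ± 0.14 for IFIT1 (adjusted p = 0.03438) and -0.68 ± 0.15 for IFIT3 (adjusted p = 0.04999).

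The IFIT1 and IFIT3 differences lay close to the threshold. The IFIT1 difference was lost without any 1 of the 12 libraries except untreated shINCA1 library 3 and treated shINCA1 library 2, with an adjusted p of up to 0.0915. The IFIT3 difference was lost without any 1 library except untreated shCTRL library 3, with an adjusted p of up to 0.137. The estimates kept their sign and ran between 0.56 and 0.84 for IFIT1 and between -0.81 and -0.53 for IFIT3. With all libraries kept, the calls were also lost with limma-voom (adjusted p = 0.145 for IFIT1 and 0.0819 for IFIT3), without a filter (0.0511 and 0.0513) and with a replicate block (0.0657 and 0.0977). The IFIT3 call was lost with upper-quartile factors as well (adjusted p = 0.0559).

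Among the members that did not pass, IFITM3 had the largest estimate, 0.77 ± 0.34 (adjusted p = 0.4097). It passed without untreated shINCA1 library 2, the library with 36 counts (1.38, adjusted p = 0.0156). IFIT2 was at -0.26 ± 0.10 (adjusted p = 0.4588), IFITM1 at 0.19 ± 0.22 (adjusted p = 0.8487) and IFITM2 at 0.01 ± 0.06 (adjusted p = 0.9989). The signs of the IFITM1 and IFITM2 estimates changed with a left-out library, and that of IFITM2 also with DESeq2 size factors. Of the 17 signalling genes, 0 had a larger and 2 a smaller response in shINCA1 cells in edgeR's test (1 and 4 at an unadjusted p of 0.05). These were the kinase gene JAK2 (-1.04 ± 0.11, adjusted p = 5.27e-04) and the feedback inhibitor gene SOCS1 (-2.05 ± 0.32, adjusted p = 0.00672). IRF9 had an estimate of 0.52 ± 0.14 and did not pass (adjusted p = 0.119).

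The make-up of each family, given here as a description, differed between the groups. Per kilobase of the MANE Select transcript, IFITM2 made up 90.5 ± 0.406% of the IFITM signal in treated shINCA1 cells and 98.3 ± 0.793% in untreated shINCA1 cells, against 43.0 ± 0.983% in treated and 75.7 ± 0.962% in untreated shCTRL cells (SD, n = 3 each). IFITM1 made up 4.61 ± 0.395% and 1.23 ± 0.492% in treated and untreated shINCA1 cells, against 41.0 ± 1.46% and 20.2 ± 0.465% in treated and untreated shCTRL cells. IFITM3 reached at most 4.91% of the family in any shINCA1 library and 15.3 to 16.5% in treated shCTRL libraries. With the counts of the 3 genes summed, the family's log2 difference between the lines was 0.07 ± 0.04 for treated cells (adjusted p = 0.167) and 0.60 ± 0.04 for untreated cells (adjusted p = 9.03e-08). In such a sum the most abundant gene, IFITM2, weighs most by construction.

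The IFIT family shifted from IFIT5 towards IFIT3 with treatment in each line. Per kilobase, IFIT5 made up 47.5 ± 0.321% of the IFIT signal in treated shINCA1 cells, against 86.5 ± 1.09% in untreated shINCA1 cells, and 27.6 ± 0.522% in treated shCTRL cells, against 71.0 ± 0.947% in untreated shCTRL cells. IFIT3 made up 38.6 ± 0.646% in treated and 7.82 ± 1.21% in untreated shINCA1 cells, and 58.5 ± 0.331% in treated and 14.4 ± 1.73% in untreated shCTRL cells. IFIT3 thus exceeded IFIT5 per kilobase in treated shCTRL cells (70.4 ± 1.57 against 33.2 ± 0.295 CPM per kb) but not in treated shINCA1 cells (18.8 ± 0.314 against 23.0 ± 0.150 CPM per kb). Summed, the IFIT counts rose by 2.003 ± 0.030 in shINCA1 cells (adjusted p = 5.72e-13) and 2.86 ± 0.03 in shCTRL cells (adjusted p = 2.48e-14), and the responses of the sum differed by -0.86 ± 0.04 (adjusted p = 5.54e-07). The most abundant gene weighs most in a sum, so this value depends on the make-up and is not a response shared by the genes. Singly the differences of responses were 0.69 for IFIT1, -0.26 for IFIT2, -0.68 for IFIT3 and -0.46 for IFIT5.

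**Figure D4:**
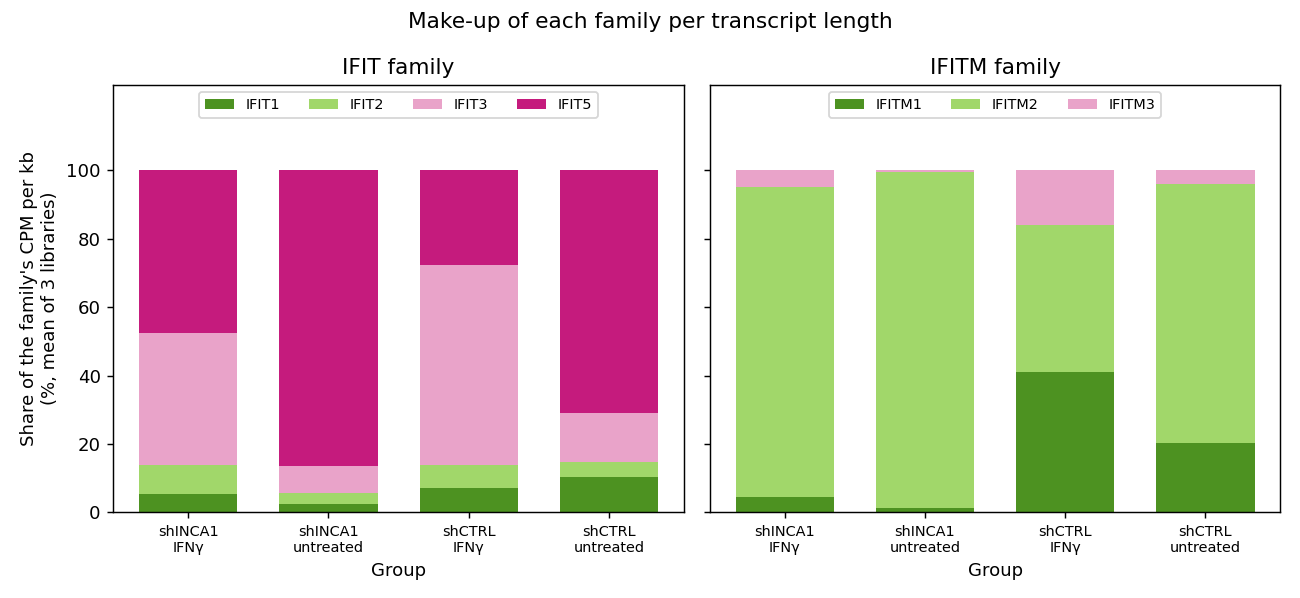
Share of each gene in its family's signal per kilobase of transcript (y axis, %, mean of 3 libraries) in the 4 groups (x axis), with the IFIT family left and the IFITM family right. IFITM2 fills 90.5% and 98.3% of the IFITM bars of treated and untreated shINCA1 cells, against 43.0% and 75.7% in shCTRL cells, and IFIT3 is the largest part of the IFIT bar at 58.5% in treated shCTRL cells.

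Reads of the IFITM genes can be hard to assign because their sequences are alike. Over 50-base windows of the MANE Select transcripts (GENCODE v44), 15.8% of IFITM1, 5.33% of IFITM2 and 17.6% of IFITM3 were identical to a stretch of another member, and over 100-base windows 7.38%, 0% and 8.20% were. In this annotation 50.7% of the 50-base windows of IFITM1 also lie in the gene ENSG00000288681, which overlaps it on the same strand. For IFIT1, IFIT2, IFIT3 and IFIT5 no window was shared with another member. With any other gene on the same strand, 55.1% of IFITM1, 12% of IFITM2 and 20.8% of IFITM3 were shared over 50-base windows. The single values of the IFITM genes are therefore uncertain. These shares do not bound the error of a level, which also depends on how abundant the matching gene is. In untreated shINCA1 cells the mean of IFITM2 was 124.88 CPM, against 1.037 CPM for IFITM1 and 0.346 CPM for IFITM3. No source used here tells how the authors treated reads that match several genes. The part of shared reads in the differences of IFITM1, IFITM2 and IFITM3 was not tested.

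The genes with the most similar pattern differed between members. Over the 12 libraries, the 3 genes with the highest Pearson correlation of log2 CPM were GBP5, ADAR and B2M for IFIT2 (r = 0.999 each), PARP14, ZC3HAV1 and NUB1 for IFIT3 (r = 0.997 to 0.998), TAP1, CD74 and GBP1P1 for IFIT5 (r = 0.999 each) and IFI16, VSNL1 and BTN3A3 for IFIT1 (r = 0.995 to 0.997). IFITM3 was closest to APOL4, BTN3A3 and BTN3A2 (r = 0.991 to 0.992), and IFITM1 to GNB4, RAB23 and UBXN4 (r = 0.990 to 0.991). The genes closest to IFITM2 were NOB1, POLR3A and UBE2O (r = 0.993 to 0.997). The 12 points fall into the 4 groups, so these values describe likeness of group levels.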

How the data were processed

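Libraries of 12 samples were made with a stranded mRNA kit and sequenced on a NovaSeq, per the labels and the series' design text. The authors deposited 1 table of expected counts (estimated counts, whole numbers) per gene symbol with no scaling of samples. FastQC, Trimmomatic, HISAT2, StringTie and the hg19 build are listed in the submitters' processing notes. Their versions, the annotation and the counting step (strand setting, reads with several matches) were not given in the sources used here. No genome of that build was used. GRCh38 served for sequences, names and transcript lengths alone, and no coordinate was converted.

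The test was edgeR 4.0.16 (R 4.3.3): filterByExpr on the 4 groups (99.986% of counts kept), TMM factors, all 12 samples in 1 quasi-likelihood fit, two-sided tests, Benjamini-Hochberg adjustment over the 15769 genes and a threshold of 0.05. The common biological coefficient of variation was 10.6%, and replicates correlated at 0.983 to 0.987. SEs are the log2 change over the root of F. For the IFIT2 difference of responses edgeR held p at its Poisson bound (0.0569, against 0.0224 without), so its SE is too small. A gene at 0 in 1 group was set to 3 counts per library for the bounds. Levels per kilobase used GENCODE v44 lengths. The test was checked on simulated data.

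Named were all 7 members, up to 4 genes of a list by p, the 3 genes most like each member, and certain interferon signalling genes. Some listed genes are not reported here. The members and lists were chosen with earlier results of these data known. FAS, IRF7, IFIT1B, IFITM4P, IFITM5 and the markers come from those lists, and ENSG00000288681 was named after its overlap was seen. Alternatives were DESeq2 size factors, upper-quartile factors, no filter, 5 CPM in 3 samples, DESeq2 1.42.0, limma-voom (limma 3.58.1), a replicate block, a fit on the compared groups alone, leaving out 1 library, counts divided by 3, an adjusted p of 0.01 and summed family counts.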

Additional observations from a re-analysis of the deposited data

Results flagged for a closer look

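The difference of the IFNγ responses between shINCA1 and shCTRL cells passed edgeR's quasi-likelihood test for 3 of the 7 members. IFIT1 had a larger log2 response in shINCA1 cells, by 0.69 (3.31 in shINCA1 against 2.61 in shCTRL cells). IFIT3 had a smaller one, by -0.68 (4.52 in shINCA1 against 5.19 in shCTRL cells), and so had IFIT5, by -0.46 (1.35 in shINCA1 against 1.81 in shCTRL cells). The adjusted p was 0.03438 for IFIT1, 0.04999 for IFIT3 and 0.0002034 for IFIT5. The IFIT1 and IFIT3 calls were lost with limma-voom (0.145 and 0.0819), without a filter (0.0511 and 0.0513), with a replicate block (0.0657 and 0.0977) and without any 1 of most libraries. The IFIT3 call was also lost with upper-quartile factors (0.0559), and the IFIT5 call was kept in each of these.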

How the results depend on the processing

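The counts of members raised and lowered by IFNγ in each line, and between the lines, were the same or within 1.5 times under every alternative. The difference of responses was less stable. There 1 member was raised, against 0 without a filter, with limma-voom, at an adjusted p of 0.01 and with a replicate block, and 0 to 1 with 1 library left out. In it 2 members were lowered, against 1 with upper-quartile factors, without a filter, with limma-voom, at an adjusted p of 0.01 and with a replicate block, and 1 to 2 with 1 library left out. The cause was not tested. Sign changes among single values were the IFITM2 difference of responses at -0.0101 with DESeq2 size factors, -0.0157 without a filter, -0.0078 at 5 CPM in 3 samples and -0.0131 with the DESeq2 test, and -0.0421 to 0.043 with a library left out, and the IFITM1 difference of responses at -0.0117 to 0.51 with a library left out. Summed families gave -0.86 in place of the IFIT1 difference of responses, and 0.07 (with IFNγ) and 0.60 (untreated) in place of the IFITM1 and IFITM3 differences between lines and -0.54 in place of those of responses of IFITM1, IFITM2 and IFITM3, where the most abundant gene weighs most by construction. The labels do not say that same-numbered samples were paired. Correlations of their deviations were -0.036 to 0.067, against -0.07 to 0.051 for differently numbered samples of different groups. Of the 12 libraries, 8 were closest to one of their own number. Whether a weak pairing exists was not tested. With the replicate block as a term the IFIT1 and IFIT3 differences of responses had an adjusted p of 0.0657 and 0.0977, and no other member's call changed.

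Over all genes, calls for the difference of responses were 97 raised and 173 lowered, against 176 and 330 with DESeq2, and 57 raised without treated shINCA1 library 3. Lowered ones numbered 112, 115, 100, 95 and 100 without untreated shCTRL library 2, treated shCTRL library 1 or 2, untreated shINCA1 library 3 or treated shINCA1 library 2. IFNγ lowered 281 genes in shINCA1 cells without untreated library 3, against 465. Depth limits IFITM3 in untreated shINCA1 cells, where the libraries held 9 to 36 counts.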

Other observations

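Genes known to act on the IFITM proteins or on the RNA that IFIT proteins bind were read as well. Of 8 such genes for IFITM proteins, 1 rose with IFNγ in each line, where 6.13% of all genes tested rose in shINCA1 cells and 9.72% in shCTRL cells. That gene was SETD7, which encodes a methyltransferase of IFITM3. SETD7 rose by 0.13 ± 0.03 in shINCA1 cells (adjusted p = 0.0372) and 0.15 ± 0.03 in shCTRL cells (adjusted p = 0.00817). Between the untreated lines, where 56.9% of all genes tested differed, 3 of the 8 were higher and 4 lower in shINCA1 than in shCTRL cells. ZDHHC4 and ZDHHC20, which encode palmitoyltransferases, were higher by 0.79 ± 0.04 (adjusted p = 5.14e-09) and 0.66 ± 0.04 (adjusted p = 1.07e-07), and SETD7 was lower (-0.60 ± 0.03, adjusted p = 2.71e-08). Of 7 genes of RNA capping and translation, 1 rose with IFNγ in each line, beside the same 6.13% and 9.72% of all genes tested. That gene was CMTR1, the cap methyltransferase whose mark keeps RNA from IFIT1. CMTR1 rose by 0.16 ± 0.04 in shINCA1 cells (adjusted p = 0.0350) and 0.27 ± 0.04 in shCTRL cells (adjusted p = 7.15e-04). Between the untreated lines 3 of the 7 were higher and 2 lower in shINCA1 cells, where 56.9% of all genes tested differed. The translation initiation factor gene EIF2S1 was higher (0.72 ± 0.03, adjusted p = 1.99e-09), as was the cap methyltransferase gene CMTR2 (0.53 ± 0.04, adjusted p = 5.47e-07), and CMTR1 was lower (-0.66 ± 0.04, adjusted p = 8.23e-08).

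Interferon genes themselves were close to 0. Of the 10 listed, 7 were at 0 in every library, and the sum of the list was 0.0612 to 0.157 CPM in treated and 0 to 0.150 CPM in untreated shINCA1 cells, against 0.0470 to 0.166 CPM in treated and 0 to 0.108 CPM in untreated shCTRL cells. IFNB1 had at most 3 counts in a library.

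Markers of other cell types differed between the lines. The sum over 8 endothelial and epithelial markers, nearly all of it KRT18, was 264.5 to 267.5 CPM in treated and 240.2 to 262.8 CPM in untreated shINCA1 cells, against 87.7 to 94.5 CPM in treated and 92.1 to 96.3 CPM in untreated shCTRL cells, while EPCAM had at most 12 counts. Their part in the members' differences was not tested.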
